A study of Mus musculus with 6 samples.

Results

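Progression through the cell division cycle was followed in mouse cortical neuronal cultures through the mRNA of 43 genes listed by symbol: the genes that license and copy the DNA, the cyclins and transcription factors that time the cycle, and the genes that build and control mitosis. All 43 were found among the 31245 genes of the deposited table, and they were sorted here by function into 6 role groups. The cultures came from the cortex of pups at postnatal day 1, of a strain that the labels do not name, and were grown in a neuronal maintenance medium. At day 12 to 13 in vitro they received either NGPF2 at 1.5 ng/ml or the vehicle, PBS, for 2 h before RNA was taken. The labels do not say what NGPF2 is. Vehicle and NGPF2 each had 3 libraries, numbered 1 to 3, and the design text describes them as separate pairs from independent experiments. The labels name no transgene or mutation in either group.

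A cell that divides first loads the MCM helicase onto its replication origins with the help of Cdc6 and Cdt1, and then fires these origins in S phase once cyclin-dependent kinases and the GINS complex have activated the helicase. E2F factors switch on the genes of this step, and a later wave, switched on by B-Myb and FoxM1, supplies the cyclins, kinases, kinetochore and spindle proteins of mitosis. Neurons have left the cycle for good, whereas astrocytes, oligodendrocyte precursors, microglia and progenitors in a cortical culture can still divide.

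The libraries did not form 1 even set. They held 17478070 to 45193691 counts, the shallowest being NGPF2 3 and the deepest NGPF2 1. The library names in the titles of replicates 2 and 3 share a stem that those of replicate 1 lack, and replicates 2 and 3 are treated below as 1 library batch for that reason alone, since no label calls them a batch. Results are given per pair, within replicates 2 and 3, and over all 3 pairs. Marker genes of neurons were present at a summed level of 163247 to 213496 normalized counts in each library, and those of astrocytes at 14300.5 to 61346. Normalized counts are read counts after division by a size factor that evens out the depth of the libraries.

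Over the 3 pairs no member passed the test. With the replicate number as a block, limma called 0 of 16653 tested genes (0%), and 0 of the 42 tested members, at an adjusted p under 0.05. At an unadjusted p under 0.05 it marked 2166 genes, or 13%, and 17 members, of which 17 were lower and 0 higher under NGPF2. The limma-voom fit to the recovered counts also called 0 members. The members with the smallest p were Foxm1, Gins2 and Cdk1, with log2 differences of −1.49 ± 0.27, −1.77 ± 0.42 and −1.50 ± 0.41 (SE, 3 pairs) and an adjusted p of 0.379 each. The pairs themselves were unlike: the median member differed by −0.05, −1.28 and −1.13 on the log2 scale in pairs 1, 2 and 3, against −0.003, −0.006 and 0 for all genes tested.

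Within replicates 2 and 3, 24 of the 42 tested members fell under NGPF2 and 0 rose, while 11.3% of all genes tested were called lower and 9.77% higher. With the replicate number as a block 24 members were lower again, 22 of them the same: Pcna and Ttk lost the call and Mcm2 and E2f8 gained it. Without the block the falls ran from 1.24-fold for Pcna to 6.38-fold for Cenpf, and the median over the members was −1.30 on the log2 scale, against −0.003 for all genes. The test has 2 libraries a group. Its p-values measure only the spread between these libraries, moderated by a trend of the variance on the mean over all tested genes. Leaving out vehicle 2 or vehicle 3 left 0 calls among all genes and members, whereas leaving out NGPF2 2 or NGPF2 3 left 21 and 20 members called. Scaling by library totals changed the split over all genes from 1884 lower and 1627 higher to 2659 lower and 982 higher, with 25 members lower and 0 higher. In bulk RNA, fewer dividing cells and less of these mRNAs per cell cannot be told apart.

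**Figure D1:**
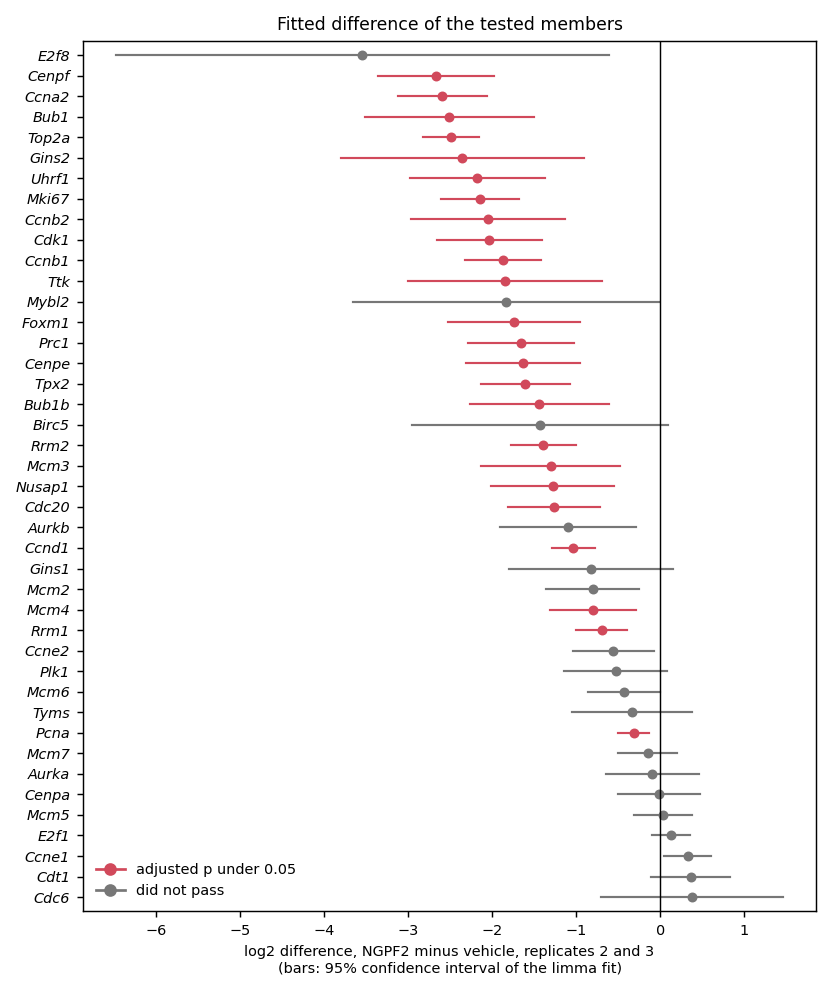
Fitted log2 difference, NGPF2 minus vehicle, within replicates 2 and 3 for each of the 42 tested members, ordered by size, with the 95% confidence interval of the limma fit as bars. Red points are the 24 members with an adjusted p under 0.05, all of them left of 0, and grey points the 18 that did not pass, from E2f8 at −3.55 to Cdc6 at 0.38.

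The vehicle and NGPF2 libraries of replicates 2 and 3 did not overlap, with NGPF2 lower, for 33 of the 42 tested members (78.6%), where 32.7% of all genes tested showed this. They were apart with NGPF2 higher for 3 members, Ccne1, Cdt1 and E2f1 (7.14%, against 32.3% of all genes), none of which passed the test. More than 2-fold differences were seen for 0, 22 and 23 of the 42 members in pairs 1, 2 and 3. Of all 16653 genes tested, 405, 2564 and 2650 differed by as much. Of the 24 members called lower, 13 were lower and 11 were higher under NGPF2 in pair 1, a split near that of all genes tested, of which 50.8% were lower in this pair.

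The promoters of 8 members are shown because the replication and the mitosis wave are known to use different promoter elements, and the members of both waves are compared below. Those of Top2a, Ccnb1, Bub1, E2f8, Rrm2 and Mcm3 come from the member of smallest p in each role group whose promoter window held a searched element, and Cdk1 and Mcm5 were added after their values and elements had been seen, Cdk1 as a member with all 3 elements and Mcm5 as a replication gene with overlapping E2F matches. Each sequence is the 250 bases before the RefSeq transcription start on GRCm38.p6, read 5′ to 3′ on the strand of the gene, with the matches in capitals. The elements searched were the cell cycle genes homology region (CHR, TTTGAA), which the DREAM and B-Myb complexes bind, the CCAAT box (CCAAT), which NF-Y binds, and the E2F site (TTTCCCGC, TTTCGCGC, TTTGCCGC or TTTGGCGC), each on both strands.
Top2a promoter, chr11:99024190-99024439, minus strand: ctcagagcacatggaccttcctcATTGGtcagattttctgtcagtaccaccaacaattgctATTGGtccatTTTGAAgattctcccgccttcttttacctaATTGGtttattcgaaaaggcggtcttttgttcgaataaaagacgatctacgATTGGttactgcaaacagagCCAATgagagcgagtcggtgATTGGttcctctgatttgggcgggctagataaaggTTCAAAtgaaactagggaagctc
Ccnb1 promoter, chr13:100786487-100786736, minus strand: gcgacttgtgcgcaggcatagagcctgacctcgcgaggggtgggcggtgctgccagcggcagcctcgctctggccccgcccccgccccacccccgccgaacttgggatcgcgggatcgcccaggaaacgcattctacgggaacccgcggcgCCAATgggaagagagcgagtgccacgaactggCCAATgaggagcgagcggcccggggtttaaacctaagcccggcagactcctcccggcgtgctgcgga
Cdk1 promoter, chr10:69352913-69353162, minus strand: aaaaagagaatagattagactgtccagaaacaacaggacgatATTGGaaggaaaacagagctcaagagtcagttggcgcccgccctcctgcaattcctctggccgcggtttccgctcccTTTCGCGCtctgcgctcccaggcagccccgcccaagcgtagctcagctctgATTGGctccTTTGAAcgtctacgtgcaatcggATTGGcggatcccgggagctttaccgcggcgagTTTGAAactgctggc
Bub1 promoter, chr2:127831860-127832109, minus strand: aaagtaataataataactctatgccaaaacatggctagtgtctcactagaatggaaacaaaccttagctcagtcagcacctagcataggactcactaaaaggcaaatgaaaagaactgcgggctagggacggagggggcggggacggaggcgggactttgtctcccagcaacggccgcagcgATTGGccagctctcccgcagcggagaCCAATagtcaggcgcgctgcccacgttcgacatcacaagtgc
E2f8 promoter, chr7:48881597-48881846, minus strand: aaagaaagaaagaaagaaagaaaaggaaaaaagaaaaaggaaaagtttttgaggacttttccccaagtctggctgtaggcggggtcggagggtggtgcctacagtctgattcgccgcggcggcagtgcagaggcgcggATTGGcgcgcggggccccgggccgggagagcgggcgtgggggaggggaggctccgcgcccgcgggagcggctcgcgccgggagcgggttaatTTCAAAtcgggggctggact
Rrm2 promoter, chr12:24708004-24708253, plus strand: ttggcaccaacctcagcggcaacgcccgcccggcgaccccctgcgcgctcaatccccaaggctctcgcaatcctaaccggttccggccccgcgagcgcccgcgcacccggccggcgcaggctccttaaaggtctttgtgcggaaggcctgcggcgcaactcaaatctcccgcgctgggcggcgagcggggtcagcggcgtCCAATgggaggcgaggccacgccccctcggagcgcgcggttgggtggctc
Mcm3 promoter, chr1:20820313-20820562, minus strand: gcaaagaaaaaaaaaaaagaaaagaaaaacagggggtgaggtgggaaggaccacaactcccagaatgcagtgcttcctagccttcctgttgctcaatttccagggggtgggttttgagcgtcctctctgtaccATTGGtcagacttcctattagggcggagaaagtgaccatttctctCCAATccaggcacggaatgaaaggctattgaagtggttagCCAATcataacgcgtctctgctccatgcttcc
Mcm5 promoter, chr8:75109259-75109508, plus strand: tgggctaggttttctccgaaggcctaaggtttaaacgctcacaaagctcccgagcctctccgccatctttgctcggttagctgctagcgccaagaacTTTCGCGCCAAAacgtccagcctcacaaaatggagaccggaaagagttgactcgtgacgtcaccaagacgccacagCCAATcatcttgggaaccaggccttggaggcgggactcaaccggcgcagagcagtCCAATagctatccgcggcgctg

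Among these, Top2a held 6 CCAAT boxes and 2 CHR matches, 1 of them from −23 to −18. Ccnb1 and Bub1, mitosis genes as well, held 2 CCAAT boxes each and no CHR match in these letters. Cdk1 held all 3 elements: an E2F match from −131 to −124, CHR matches from −71 to −66 and from −15 to −10, and 3 CCAAT boxes. In Mcm5 the E2F matches from −153 to −146 and from −149 to −142 overlap each other, so the capitals there run on. Mcm3 has its E2F matches after the start, from 20 to 27 and from 39 to 46, outside the printed bases. A match describes the sequence and does not show that a factor binds there.

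RefSeq windows of 300 bases, from 250 before to 50 after the start, were found for 34 of the 43 members. Members without a window are Ccnd1, Aurkb, Foxm1, Ccna2, Mcm4, Tpx2, Gins2, Ccne2 and Gins1. A CHR match lay in 15 of the 34 (44.1%, against 17.9% of all 32851 windows), a CCAAT box in 26 (76.5%, against 37.4%) and an E2F site in 9 (26.5%, against 2.26%). The member shares count genes with a match in any window, and the shares of all windows count single windows. E2f2, Mcm7, Prc1 and Uhrf1 have 2 windows each, which favours the members. Of the 18 G2 and mitosis members with a window, 12 held a CHR match and 1, Cdk1, an E2F site, whereas of the 12 replication members 1, Mcm2, held a CHR match and 7 an E2F site. Split by the outcome within replicates 2 and 3, a CHR match was held by 9 of 18 members called lower and 5 of 15 not called, and an E2F site by 3 of 18 and 5 of 15. CCAAT boxes were held by 17 of 18 members called lower and 8 of 15 not called.

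**Figure D2:**
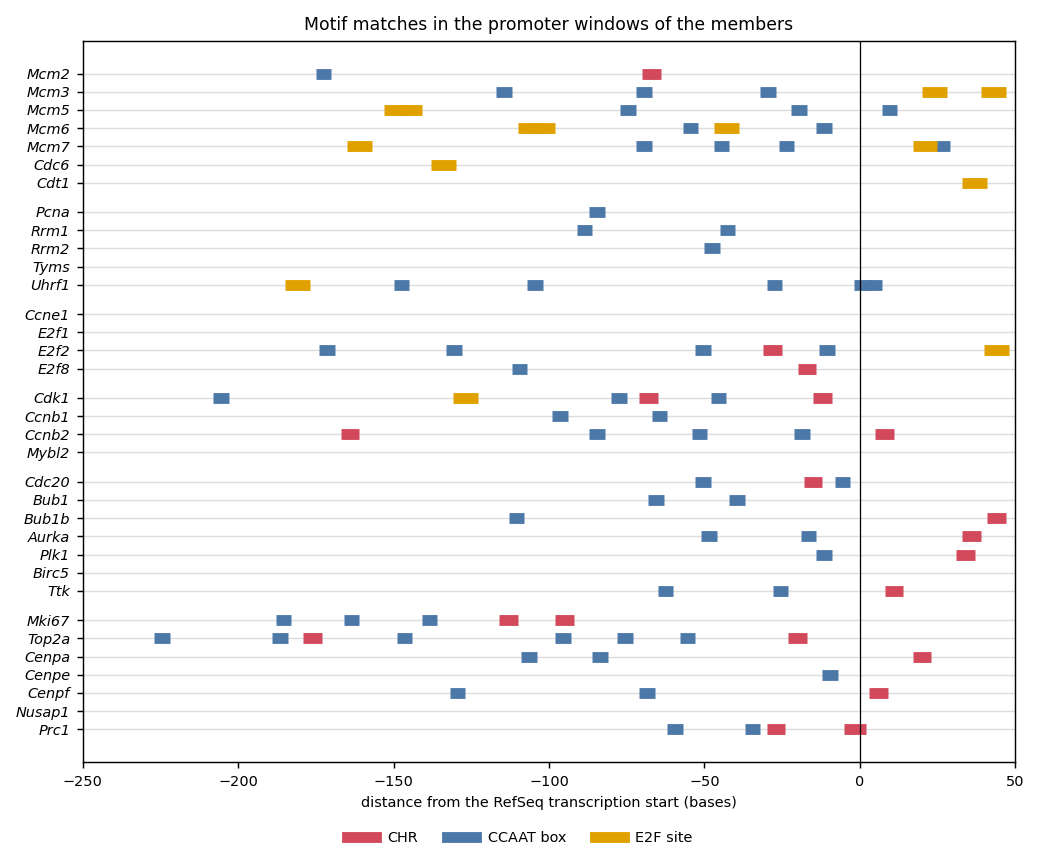
Position of each match to the CHR, the CCAAT box and the E2F site in the promoter windows of the 34 members with a RefSeq window, grouped by role, on an axis of bases from the transcription start. CHR matches sit mainly in the mitosis genes of the lower blocks (12 of 18) and E2F matches mainly in the replication genes of the upper blocks (7 of 12).

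The counts of falls in each role group are to be read against the 11.3% of all tested genes called lower within replicates 2 and 3. Among the 10 genes that license origins and form the helicase, 3 fell within replicates 2 and 3: Gins2, Mcm3 and Mcm4. Gins2, a subunit of the GINS complex that activates the helicase, counted 218, 219 and 88.3 in the vehicle libraries 1 to 3 and 145, 38.3 and 17.9 in their NGPF2 partners. NGPF2 2 and NGPF2 3 were the lowest of the 6 libraries, and vehicle 2 lay well above vehicle 3. The difference within replicates 2 and 3 was −2.36 ± 0.57 on the log2 scale (SE, 2 libraries a group, adjusted p = 0.0435). Of the exonic bases of Gins2, 67.3% are shared with Gse1 on the opposite strand, and because no source used here gives the strand setting of the counting, reads of these neighbours cannot be told apart. In all, 12 members share exonic bases with another gene, the other 11 up to 23.4% of them. Mcm3, part of the helicase ring and located at chr1:20802968-20820312 (GENCODE M21 on GRCm38.p6, as for all gene positions below), counted 115, 177 and 188 in the vehicle libraries 1 to 3 and 107, 99.2 and 53.8 in their NGPF2 partners. NGPF2 3 was lowest and all NGPF2 libraries were below all vehicle libraries, with a difference within replicates 2 and 3 of −1.31 ± 0.32 (adjusted p = 0.0464). Mcm4, another ring subunit, counted 255, 414 and 355 in the vehicle libraries 1 to 3 and 261, 257 and 187 in their NGPF2 partners. Its difference was −0.80 ± 0.20 (adjusted p = 0.0467), with NGPF2 1 slightly above vehicle 1.

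The other licensing genes did not pass. The ring subunits Mcm2 and Mcm6 and the GINS subunit Gins1 had differences of −0.81 (adjusted p = 0.0561, and 0.0259 with the replicate block), −0.44 (0.132) and −0.83 (0.188). Mcm5 and Mcm7 differed by 0.03 and −0.15, with 95% intervals from −0.32 to 0.37 and from −0.51 to 0.20. The loaders Cdc6 and Cdt1 had positive differences, 0.38 and 0.36, with intervals that include 0. For 2 subunits of the same ring side by side, Mcm5 counted 237 and 239 under vehicle and 232 and 253 under NGPF2 in replicates 2 and 3, where Mcm3 counted 177, 188, 99.2 and 53.8. The difference between them was not tested.

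Of the 5 genes for nucleotide supply, the fork and newly replicated chromatin, 4 fell. Rrm2, the regulated small subunit of ribonucleotide reductase at chr12:24708241-24714146, counted 206, 364 and 364 in the vehicle libraries 1 to 3 and 195, 149 and 127 in their NGPF2 partners. All 3 NGPF2 libraries were below all 3 vehicle libraries, though NGPF2 1 was close to vehicle 1. The fall within replicates 2 and 3 was 2.63-fold (−1.39 ± 0.15 log2, adjusted p = 0.00614). Uhrf1, which reads hemimethylated DNA behind the fork and brings in the maintenance methyltransferase, counted 63.2, 126 and 134 in the vehicle libraries 1 to 3 and 67.8, 35.9 and 21.5 in their NGPF2 partners. It fell by a larger factor, 4.53-fold (adjusted p = 0.0118), and in replicate 1 NGPF2 was slightly the higher. Rrm1, the large subunit of ribonucleotide reductase, counted 823, 806 and 751 in the vehicle libraries 1 to 3 and 791, 518 and 442 in their NGPF2 partners. NGPF2 2 and NGPF2 3 stood below the other 4 libraries, which lay close together, and the fall was 1.63-fold (adjusted p = 0.019). Pcna, the sliding clamp of the polymerase, fell by a factor of 1.24 (adjusted p = 0.0392), a call lost with the replicate block (adjusted p = 0.0761). Tyms, which makes thymidylate, differed by −0.34 (adjusted p = 0.435) with overlapping libraries.

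Of the G1/S cyclins and E2F factors, 1 of 5 tested fell, where 11.3% of all genes tested were called lower. With so few genes, 1 call does not set this group apart from all genes. Ccnd1, the cyclin D1 that links growth signals to the cycle, counted 2975, 4359 and 4263 in the vehicle libraries 1 to 3 and 2774, 2286 and 1935 in their NGPF2 partners. All NGPF2 libraries were below all vehicle libraries, and within replicates 2 and 3 the fall was 2.05-fold (−1.04 ± 0.10 log2, adjusted p = 0.0046). Of its exonic bases, 23.4% are shared with LTO1 on the opposite strand. E2f8, a repressor of the E2F family, counted 21.9, 27.7 and 46.5 in the vehicle libraries 1 to 3 and 22.4, 0 and 8.97 in their NGPF2 partners. Both NGPF2 libraries of replicates 2 and 3 were lowest, with no read in NGPF2 2, where 3 reads would be 3.59 normalized counts, and 5 reads in NGPF2 3. Its difference of −3.55 ± 1.15 rests on these few reads and did not pass (adjusted p = 0.0887, and 0.0269 with the replicate block). Ccne1, the cyclin E1 that drives entry into S phase, counted 436, 431 and 478 in the vehicle libraries 1 to 3 and 406, 565 and 573 in their NGPF2 partners. NGPF2 2 and NGPF2 3 were the highest of the 6, with a difference of 0.32 ± 0.11 that did not pass (adjusted p = 0.0957).

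Ccne2, the other cyclin E, differed by −0.56 (adjusted p = 0.0982). E2f1, the activating E2F, counted 378, 873 and 812 in the vehicle libraries 1 to 3 and 400.4, 923 and 917 in their NGPF2 partners. It separated by replicate, with 378 and 400.4 in replicate 1 and 812 to 923 in replicates 2 and 3, and NGPF2 differed from vehicle by only 0.13 (95% interval from −0.10 to 0.35). E2f2, another activating E2F, was too low to test, with 6.45, 8.04 and 16.7 in the vehicle libraries 1 to 3 and 12.8, 2.39 and 0 in their NGPF2 partners.

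The cyclins of S phase and mitosis, their kinase and the late transcription factors gave 5 falls among 6 members. Ccna2, cyclin A2, at chr3:36564865-36572150, counted 83.2, 178 and 187 in the vehicle libraries 1 to 3 and 84.4, 29.9 and 28.7 in their NGPF2 partners. The replicate 1 libraries were nearly equal, the vehicle libraries of replicates 2 and 3 were the highest and the NGPF2 libraries of replicates 2 and 3 the lowest. The fall there was 6.05-fold (−2.60 ± 0.21 log2, adjusted p = 0.00309). Of the exonic bases of Ccna2, 12.5% are shared with Exosc9 on the opposite strand. Ccnb1, cyclin B1, which with Cdk1 starts mitosis, counted 59.3, 207 and 203 in the vehicle libraries 1 to 3 and 57.6, 55.0 and 55.6 in their NGPF2 partners. Vehicle 2 and vehicle 3 stood apart at over 200 and the other 4 libraries, vehicle 1 among them, lay between 55.0 and 59.3. Its fall was 3.66-fold (adjusted p = 0.00455). Cdk1, the kinase itself, counted 44.5, 165 and 131 in the vehicle libraries 1 to 3 and 32.6, 38.3 and 32.3 in their NGPF2 partners. The same 2 vehicle libraries stood apart from the other 4, and the fall was 4.10-fold (adjusted p = 0.00782).

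Foxm1, a transcription factor of the mitosis wave, counted 113, 114 and 171 in the vehicle libraries 1 to 3 and 56.9, 34.7 and 48.5 in their NGPF2 partners. It was lower under NGPF2 in every pair, with the largest negative difference in pair 1 among the members with a mean of at least 50 (−0.98, against −1.69 and −1.79 in the other pairs), and all NGPF2 libraries were below all vehicle libraries. Within replicates 2 and 3 it fell 3.35-fold (adjusted p = 0.0203). Ccnb2, cyclin B2, fell 4.14-fold (adjusted p = 0.0199), with 17 and 7 reads in NGPF2 2 and NGPF2 3. Mybl2, or B-Myb, had a difference of −1.83 that did not pass (adjusted p = 0.134), with only 3 reads in NGPF2 2.

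Of the mitotic kinases, the passenger and checkpoint genes and the activator of the anaphase-promoting complex, 4 of 8 fell. Bub1, a spindle checkpoint kinase, counted 18.7, 55.4 and 63.2 in the vehicle libraries 1 to 3 and 26.9, 7.17 and 12.6 in their NGPF2 partners. The NGPF2 libraries of replicates 2 and 3 were the lowest and the vehicle libraries of the same replicates the highest, a fall of 5.71-fold (−2.51 ± 0.39 log2, adjusted p = 0.0147) that rests on 6 and 7 reads under NGPF2. Cdc20, which activates the anaphase-promoting complex, counted 78.7, 145 and 149 in the vehicle libraries 1 to 3 and 87.6, 53.8 and 68.2 in their NGPF2 partners. NGPF2 1 was above vehicle 1, and within replicates 2 and 3 the fall was 2.40-fold (adjusted p = 0.0182). Bub1b, or BubR1, the checkpoint partner that restrains Cdc20, counted 70.3, 114 and 87.1 in the vehicle libraries 1 to 3 and 103, 45.4 and 28.7 in their NGPF2 partners. NGPF2 1 was again above vehicle 1, and the fall was 2.71-fold (adjusted p = 0.037).

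Ttk, or Mps1, the kinase at the top of the checkpoint, fell 3.62-fold (adjusted p = 0.0451) on 6 and 5 reads in NGPF2 2 and NGPF2 3, and lost the call with the replicate block (adjusted p = 0.0596) and with limma-voom. It kept the call in 4 of 13 other settings. The 4 that did not pass were Aurkb and Birc5, kinase and survivin subunit of the passenger complex, at −1.10 (adjusted p = 0.0681) and −1.44 (0.153), Plk1, a kinase of mitotic entry, at −0.53 (0.178), and Aurka, a kinase of the spindle poles, at −0.10 (0.781). Aurka counted 115, 92.0 and 94.2 in the vehicle libraries 1 to 3 and 108, 98.0 and 77.2 in their NGPF2 partners, with the libraries overlapping.

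The centromere, spindle and chromosome genes gave 7 falls among 8, and hold the member of smallest p. Top2a, the topoisomerase that untangles sister chromatids, at chr11:98992943-99024189, counted 197, 596 and 602 in the vehicle libraries 1 to 3 and 219, 109 and 102 in their NGPF2 partners. Vehicle 2 and vehicle 3 were highest, NGPF2 2 and NGPF2 3 were lowest, and the replicate 1 libraries lay between them with NGPF2 slightly the higher. The fall within replicates 2 and 3 was 5.63-fold (−2.49 ± 0.13 log2, adjusted p = 0.00139). Mki67, the chromosome surfactant Ki-67 used as the standard mark of cycling cells, at chr7:135689784-135716361, counted 147, 381 and 304 in the vehicle libraries 1 to 3 and 259.7, 76.5 and 75.4 in their NGPF2 partners. In replicate 1 NGPF2 was the higher by 0.82 on the log2 scale, the largest positive difference in that pair among the members with a mean of at least 50, and in replicates 2 and 3 it fell 4.44-fold (adjusted p = 0.00348). Cenpf, a kinetochore protein made in G2, at chr1:189640606-189688086, counted 111, 319 and 291 in the vehicle libraries 1 to 3 and 132, 37.1 and 59.2 in their NGPF2 partners. It had the largest fall of the members called, 6.38-fold (−2.67 ± 0.27 log2, adjusted p = 0.00535).

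The kinesin Cenpe and the spindle proteins Tpx2, Prc1 and Nusap1 fell 3.11-fold, 3.05-fold, 3.16-fold and 2.44-fold (adjusted p from 0.00945 to 0.036). Cenpa, the histone variant that marks centromeres, was the exception. It counted 82.5, 128 and 113 in the vehicle libraries 1 to 3 and 65.9, 129 and 109 in their NGPF2 partners, and its difference of −0.02 within replicates 2 and 3 had an interval from −0.51 to 0.48.

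**Figure D3:**
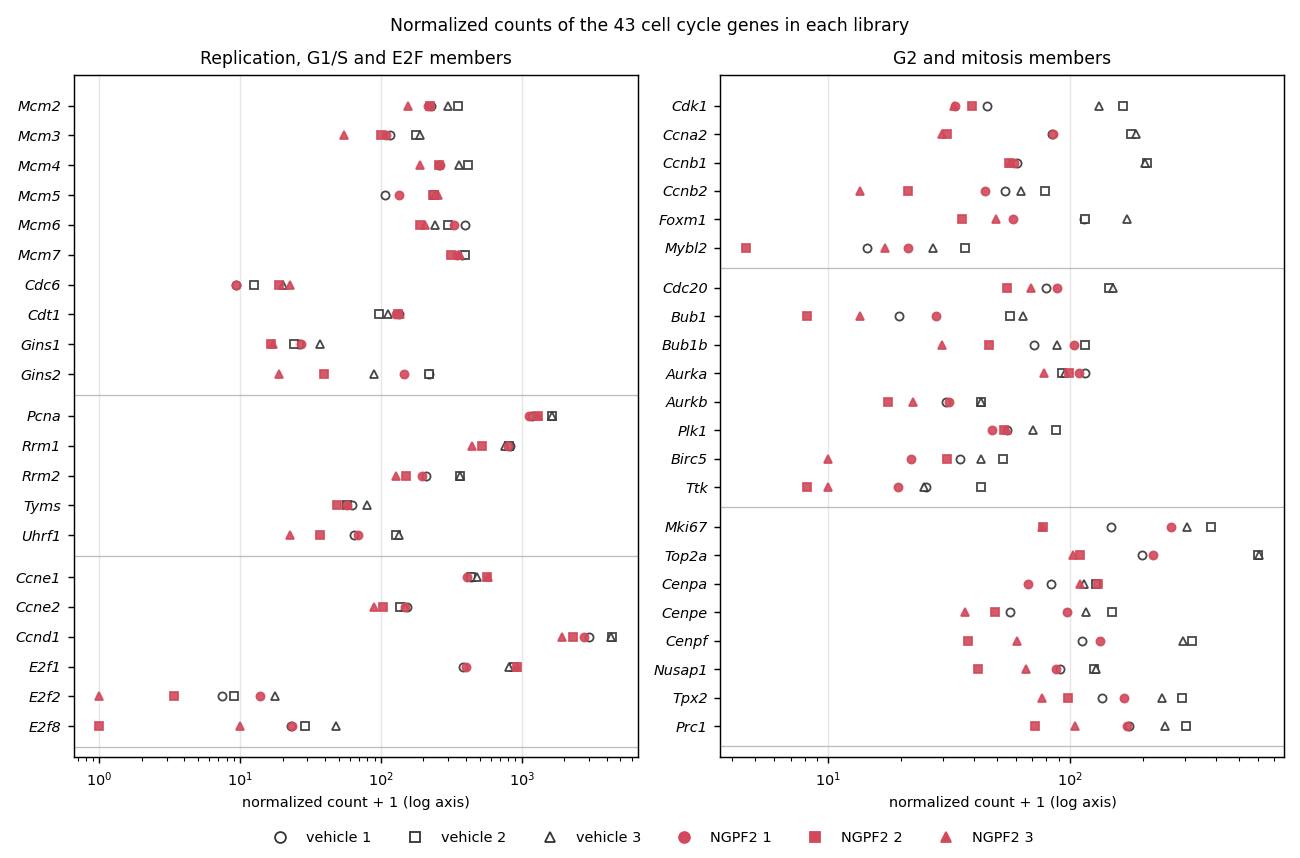
Normalized count plus 1 of each of the 43 genes in each of the 6 libraries on a log axis, replication, G1/S and E2F genes at left and G2 and mitosis genes at right, with vehicle as open and NGPF2 as filled symbols. For most mitosis genes the open square and triangle (vehicle 2 and 3) lie at the right and the filled ones (NGPF2 2 and 3) at the left, as for Top2a at 596 and 602 against 109 and 102, while Cenpa, Aurka, E2f1 and Mcm5 show no such gap.

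The mitosis genes differed more than the replication genes in pairs 2 and 3, and neither class differed much in pair 1. The median over the 22 G2 and mitosis members was −0.01, −1.79 and −1.66 in pairs 1, 2 and 3. The 15 replication members, the licensing, fork and nucleotide groups together, had medians of −0.07, −0.64 and −0.77 in the same pairs. Within replicates 2 and 3, 16 of 22 mitosis members and 7 of 15 replication members were called lower, with medians of −1.70 and −0.70. Of all genes tested, 11.3% were called lower there. The difference between the classes was not tested.

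Summed over their members, the mitosis genes under NGPF2 came to 108%, 29.8% and 32.5% of vehicle in the 3 pairs in order, and the replication genes to 94.0%, 68.7% and 68.8%. Pcna and Rrm1 were the largest parts of the replication sum, so that the sums and their ratio depend much on them. They held 1628 and 806 of 5197 in vehicle 2, and 1308 and 518 of 3569 in NGPF2 2. The summed mitosis genes amounted to 42.6%, 71.1% and 69.4% of the summed replication genes in vehicle 1, 2 and 3, and to 49.2%, 30.8% and 32.7% in NGPF2 1, 2 and 3. Vehicle 1 lay below NGPF2 1 and both lay between the other vehicle and NGPF2 libraries.

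**Figure D4:**
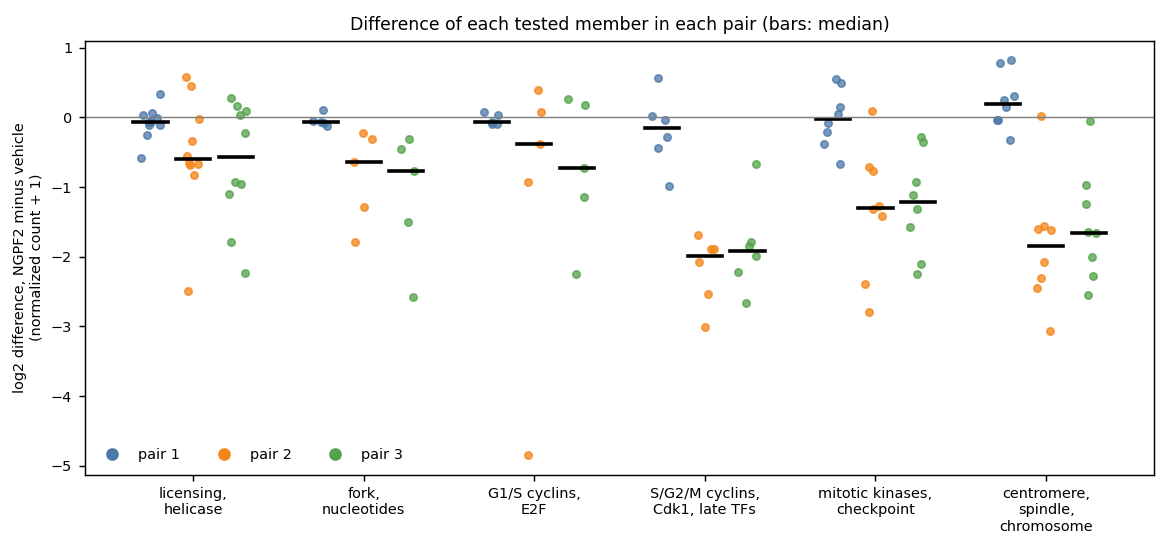
Difference on the log2 scale, NGPF2 minus vehicle, of each tested member in pair 1 (blue), pair 2 (orange) and pair 3 (green), by role group, with the median as a bar. Pair 1 is spread around 0 in all 6 groups, from −0.98 for Foxm1 to 0.82 for Mki67, while the medians of pairs 2 and 3 reach −1.99 and −1.92 in the group of the S/G2/M cyclins.

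The NGPF2 effect itself was compared between replicates 2 and 3 and replicate 1 with an interaction term, in which replicate 1, with 1 library a group, is assumed to vary like the others. The effect was more negative in replicates 2 and 3 for 3 of 42 members and more positive for 0, where 1.77% and 0.721% of all genes tested were called in these directions. The 3 were Top2a, by −2.64 ± 0.23 log2 (adjusted p = 0.0166), Mki67, by −2.97 ± 0.31 (adjusted p = 0.0225), and Ccna2, by −2.62 ± 0.35 (adjusted p = 0.0374). Cenpf came next at −2.92 (adjusted p = 0.0538) and did not pass. The number called moved with the settings: it was 12 with limma-voom, 8 with a robust fit, 6 with the replicate block and 0 without the mean-variance trend, without vehicle 2 or without vehicle 3.

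Under vehicle alone, the 43 genes summed to 9936 normalized counts in replicate 1 and to 14725 and 14036 in replicates 2 and 3. Among the 42 tested members, 11 were higher and 0 lower, against 10.5% and 9.42% of all genes tested, in a comparison of 2 libraries with 1. The spread comes from the groups with 2 libraries, vehicle 1 being assumed to vary like them, so that a peculiarity of this library and a difference between replicates cannot be told apart. The fold differences of 3.41 for Ccnb1, 3.26 for Cdk1, 3.03 for Top2a, 2.73 for Cenpf, 2.31 for Mki67 and 2.18 for Ccna2 were in mitosis genes. Mcm5, E2f1, Rrm2, Ccnd1 and Pcna were higher as well, by 2.24, 2.23, 1.76, 1.45 and 1.38-fold. Without vehicle 2 or without vehicle 3 no member passed. Since these vehicle libraries also enter the comparison with NGPF2, the 2 results are not independent.

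Per kilobase of exon under vehicle in replicates 2 and 3, Ccnd1 had the highest level of the 43 genes, with 926 and 905 normalized counts per kilobase, followed by Pcna with 678 and 678, E2f1 with 277 and 258 and Ccne1 with 162 and 179.7. The lowest were E2f2 with 1.65 and 3.42 and Cdc6 with 2.22 and 3.65, whose ranges overlapped. The mitosis gene with the highest level per kilobase was Cdc20, with 77.5 and 79.8, above Top2a with 66.1 and 66.8.

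The other genes of the pathway were taken in 5 lists that hold none of the 43 members, and their counts are to be read against the 11.3% of all tested genes called lower and the 9.77% called higher. Of 40 other mitosis genes, 15 fell within replicates 2 and 3 and 0 rose, with a median of −1.30, and of 27 tested other replication genes 2 fell and 0 rose, with a median of −0.32, a share of calls below that of all genes. With the replicate block 19 of the other mitosis genes and 1 of the other replication genes were lower. Nuf2 and Spc25, subunits of the kinetochore complex that grips microtubules, differed by −2.81 and −2.06 (adjusted p = 0.00386 and 0.00652), and Pbk, a mitotic kinase, by −2.44 (0.00517). Nuf2 counted 52.9, 124 and 119 in the vehicle libraries 1 to 3 and 38.4, 16.7 and 16.2 in their NGPF2 partners, with both NGPF2 libraries of replicates 2 and 3 lowest. The replication genes called were Tk1, thymidine kinase, at −1.73 (adjusted p = 0.0234) and Mcm10, which helps the helicase to fire, at −1.36 (0.0444, and 0.0722 with the replicate block, which loses the call), both higher under NGPF2 in pair 1, by 0.89 and 1.29.

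Among the brakes of the cycle, 2 of 7 CDK inhibitors fell and 0 rose. Cdkn1a, or p21, counted 2558, 3158 and 3514 in the vehicle libraries 1 to 3 and 2366, 1533 and 1531 in their NGPF2 partners. It fell by 1.12 on the log2 scale within replicates 2 and 3 (adjusted p = 0.00263), and Cdkn2c, or p18, fell by 1.45 (0.0215). Cdkn2b, or p15, had a difference of −1.36 that did not pass (0.0638). Cdkn1c, or p57, named after its values were seen, had a difference in the other direction, 1.39, that did not pass either (0.0739). Of the 14 pocket proteins, DREAM subunits and other E2F and DP factors, 3 fell and 2 rose, against 11.3% and 9.77% of all genes. Those that fell were Rbl1, the pocket protein p107, at −2.26 (adjusted p = 0.0167), Lin52, a DREAM subunit, at −0.78 (0.0139), and the E2F partner Tfdp2 at −0.72 (0.0268). E2f3 and Tfdp1 rose by 0.37 and 0.43 (adjusted p = 0.034 and 0.0436), and E2f3 lost the call with the replicate block (adjusted p = 0.0599).

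Of 8 other interphase cyclins, kinases and regulators, 2 fell and 2 rose. Wee1, the kinase that holds Cdk1 inactive, counted 195, 543 and 557 in the vehicle libraries 1 to 3 and 259, 979 and 1010.4 in their NGPF2 partners. NGPF2 was higher in every pair, and the rise within replicates 2 and 3 was 1.81-fold (adjusted p = 0.00565). Cdc25a, a phosphatase that activates these kinases, rose by 1.06 on the log2 scale (0.0373). Ccnd2, cyclin D2, and Cdk2, the kinase of S phase, fell by 0.46 and 3.08 (adjusted p = 0.00983 and 0.0292), the latter with 3.59 and 14.4 normalized counts in NGPF2 2 and 3.

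Markers of the cell types in such cultures were taken in lists as well. Their counts are again to be read against the 11.3% of all tested genes called lower and the 9.77% called higher. Astrocyte markers were lower under NGPF2 within replicates 2 and 3 for 10 of 10 genes, and their summed level ran from 22372 to 61346 under vehicle and from 14300.5 to 25914 under NGPF2. Microglia markers were lower for 6 of 9 tested, with sums of 512 to 1533 under vehicle and 62.2 to 1610.1 under NGPF2, Cx3cr1 being at 0 in NGPF2 2, Aif1 in NGPF2 2 and NGPF2 3, and Itgam in NGPF2 3. Oligodendrocyte precursor markers were lower for 3 of 6 tested (3541 to 7288 against 1260.1 to 3644). Gpr17 was at 0 in NGPF2 2 and NGPF2 3. Olig1 held most of the sum, with 6065 of 7288 in vehicle 2, and C1ql1 was higher in pair 2 (0.92 log2) and lower in pair 3 (−0.72). Neural progenitor markers were lower for 5 of 8 (10547 to 13888 against 4828 to 10485.5). In both pair 2 and pair 3, 5 of these 8 were lower and 2 higher. The 2 were Hes5, by 0.14 and 0.64 on the log2 scale, and Eomes, by 0.73 and 0.30. Fibroblast and mural markers were lower for 3 of 8 (516 to 3501 against 174 to 3184), with Lum at 0 in NGPF2 3. Neuron markers were higher for 3 of 6 and lower for 0.

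In pairs 1, 2 and 3 the summed level under NGPF2 was 116%, 28.4% and 26.0% of vehicle for astrocyte markers, 103%, 17.3% and 19.3% for oligodendrocyte precursors, 105%, 10.8% and 21.4% for microglia, 91.0%, 31.3% and 33.7% for fibroblasts and mural cells, and 99.4%, 38.5% and 34.8% for neural progenitors. The neuron markers stood at 99.8%, 124% and 121%. Among the astrocyte markers, the median difference in pair 1 was 0.02 on the log2 scale. The largest was 1.17 for Slc1a2, with 2697 in vehicle 1 and 6056 in NGPF2 1. Slc1a2 also held most of the astrocyte sum in NGPF2 2 (12812.5 of 17407) and NGPF2 3 (10237 of 14300.5). It differed by −0.74 and −0.86 in pairs 2 and 3, against medians of −3.09 and −2.94 over the 10 astrocyte markers. The summed percentages of pairs 2 and 3 therefore understate the fall of the median astrocyte marker. For the members, the mitosis genes came to 108%, 29.8% and 32.5% of vehicle in the same pairs, and the replication genes to 94.0%, 68.7% and 68.8%. Of the remaining lists, the oligodendrocyte markers stood at 94.7%, 63.6% and 70.4% of vehicle in the 3 pairs, with 2 of 7 lower. The endothelial markers stood at 105%, 61.9% and 93.3%. Of these, 0 of 3 tested were called, with Cldn5 at 0 in 4 libraries, Cdh5 in 2 and Kdr in 1. Excitatory neuron markers had 2 lower and 3 higher of 7, and inhibitory ones 2 lower and 4 higher of 7. Over all tested genes, 11.3% were called lower and 9.77% higher. The replicates also differed under vehicle. Against vehicle 1, the mean summed level of vehicle 2 and vehicle 3 was 2.60-fold for astrocyte markers and 0.355-fold for microglia. It was 0.156-fold for fibroblasts and mural cells and 1.45-fold for the 43 members. The part of cell composition in the cell cycle results was not tested.

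**Figure D5:**
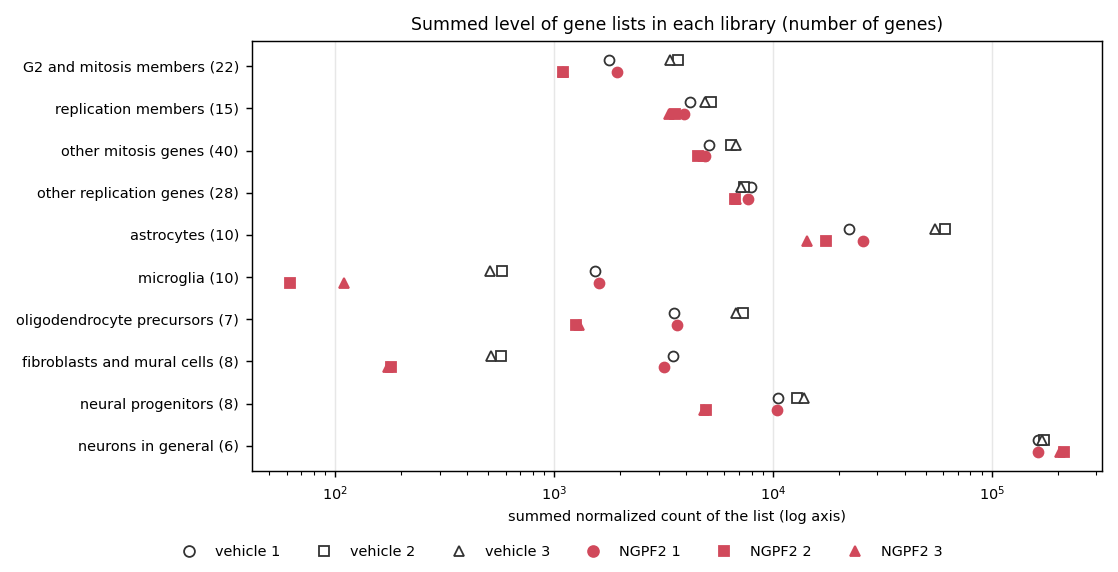
Summed normalized count of gene lists in each library on a log axis, with the number of genes in brackets, vehicle as open and NGPF2 as filled symbols. NGPF2 2 and 3 lie left of vehicle 2 and 3 for the mitosis members (1099.9 and 1100.2 against 3693 and 3389.7) and for astrocyte, microglia and precursor markers, while vehicle 1 and NGPF2 1 lie close together in each list (NGPF2 at 91.0% to 116% of vehicle) and the neuron markers show the opposite order.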

How the data were processed

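Libraries of the 6 cultures were made from mRNA caught on oligo(dT) beads, per the labels' protocols. Tools listed in the submitters' processing notes, without role or order, are STAR 2.5, DESeq 1.22.1, Cuffnorm and FastQC, beside the build mm10. The deposited table is labelled FPKM, but its values, as tested on the table, are log2 values of a read count divided by a size factor, plus 1: 100% of them give whole counts within 0.01. No source used here gives the annotation or the strand setting. Ensembl identifiers were matched to symbols for 31185 of 31245 genes, and exon positions come from GENCODE M21. The columns of replicates 2 and 3 carry their library names. Those of replicate 1 were assigned by elimination and initial, although they carry the digit 3. Value columns without a sample numbered 0.

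The deposited log2 values of the 16653 genes with a mean of at least 10 normalized counts were fitted with limma 3.58.1 in R 4.3.3 (2-sided, moderated with a trend of the variance on the mean, adjusted by Benjamini-Hochberg over all tested genes, threshold 0.05). Fold changes are on the log2(value + 1) scale, which understates the change of low genes. The fit over 3 pairs holds the replicate number as a block, as the design text describes pairs. Deviations of same-numbered libraries from their group means correlated at 0.594, 0.299 and 0.333 in pairs 1, 2 and 3, and those of vehicle 2 with NGPF2 3 and of vehicle 3 with NGPF2 2 at 0.342 and 0.320. The fit within replicates 2 and 3 has no block. The interaction fit has the library batch and treatment. The scripts were tested on simulated data.

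The members and the 5 pathway and 10 marker lists were chosen with earlier results of these data known. Named in full are, per role group, the 3 members of smallest p within replicates 2 and 3, the members called in, or of smallest p in, the 3-pair fit and the interaction, the extremes of pair 1 among members with a mean of at least 50, and the 3 genes of smallest p in each pathway list, 1 of which is not reported here. Other members and the genes called in the opposite direction are named for completeness. Promoter windows are from RefSeq. Alternatives tried were the pseudocount, filter, scaling, trend, robust fit, limma-voom on the recovered counts, the block and leaving out libraries.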

Additional observations from a re-analysis of the deposited data

Results flagged for a closer look

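For 3 of 42 tested members the NGPF2 effect in replicates 2 and 3 differed from that in replicate 1 by limma's interaction test. Of all genes tested, 1.77% were called more negative and 0.721% more positive. The calls of the 3 members were lost without the mean-variance trend. The difference of the effects on the log2 scale was −2.64 for Top2a, −2.97 for Mki67 and −2.62 for Ccna2, with adjusted p-values of 0.0166, 0.0225 and 0.0374. In replicate 1 the NGPF2 library was the higher for each of the 3, by 0.15, 0.82 and 0.02, and in pairs 2 and 3 it was the lower. Replicate 1 has 1 library a group, and no member passed this test without vehicle 2 or without vehicle 3.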

How the results depend on the processing

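The counts of members called depended on the settings. Over the 3 pairs, 0 members were lower in all settings that kept every library, with no replicate block and with the library batch as a block included, and 0 to 24 when a replicate was left out, the 24 being without replicate 1. Within replicates 2 and 3, 24 were lower, 24 with the replicate block, of which 22 were the same genes, and 18 to 25 under the other settings that kept the libraries, except for 16 without the mean-variance trend and 6 without the filter. Leaving out a library gave 0 to 21. Over all genes, 1884 lower and 1627 higher became 737 and 337 without the filter and 1093 and 442 without the trend. Scaling by library totals moved the median of all genes to −0.13. The calls of Top2a, Mki67, Ccna2, Ccnb1 and Rrm2 were kept in 12 of 14 settings and lost without vehicle 2 or vehicle 3, whereas Gins2 kept its call in 6 of 14 and Ttk in 4 of 13. In the interaction, 3 members were lower, 8 with the filter at a mean of 50, 5 without the filter, 5 with library total scaling, 0 without the trend, 8 with the robust fit, 12 with limma-voom and 6 with the replicate block, and 0 to 4 when a library was left out. Under vehicle, 11 members were higher in replicates 2 and 3, 6 without the filter, 6 without the trend, 13 with the filter at a mean of 50, with quantile scaling and with the robust fit, 16 with limma-voom, which also called 1 lower, and 0 to 12 when a library was left out. The cause of these changes was not tested, except that leaving out a library leaves fewer samples. Depth limited the members with few reads: E2f2 was not tested, and Bub1, Ttk, Ccnb2, E2f8, Mybl2, Birc5 and Gins1 had under 10 reads in at least 1 NGPF2 library, the calls of Bub1, Ttk and Ccnb2 resting on them.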
